A study of Mus musculus with 39 samples.

Results

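Islets of mice 10 days post partum were compared with islets of non-pregnant mice. Of the 39 arrays of the study, 4 came from islets taken 10 days after birth and 4 from islets of non-pregnant females, and both sets were chosen by their titles alone. The post partum mice were lactating, and both groups were wild type C57bl6/J. All 8 samples were whole isolated islets, so every cell type carried along was measured in 1 RNA extract. Of the other arrays, those of pregnancy days 3.5 (3 arrays) and 6.5, 9.5, 12.5, 15.5 and 18.5 (4 arrays each) came from wild type C57bl6/J mice as well. A further 4 arrays of Pdx1-creLate mice and 4 of control littermates, from 1 backcross (N8), enter only where values are set beside the post partum ones. The labels call the 4 samples of a group biological replicates. They give no age, number of mice per sample, time of day or litter size, so p-values rest on the spread between samples within groups.

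Pancreatic islets hold mostly insulin-secreting beta cells, with alpha, delta and pancreatic polypeptide cells, endothelium, macrophages and supporting cells around them. In rodent pregnancy, placental lactogen and prolactin bind the prolactin receptor on beta cells, which signals through JAK2 and STAT5. That signal raises tryptophan hydroxylase and serotonin in beta cells, beta cells divide, and islets enlarge. During lactation prolactin from the pituitary remains high while the mammary gland takes up large amounts of glucose, amino acids and lipid.

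The arrays were of the type Affymetrix Mouse Gene 1.0 ST, whose probes cover the exons of a gene. The values are on a log2 scale, so a difference of 1 is a 2-fold change, and they carry 1 decimal. For each of 19938 genes with a symbol of its own, 1 probe set was used. Genes count as called below an adjusted p of 0.05 by limma (Benjamini-Hochberg over the 19938 genes). The spread of a gene was estimated within groups over the 31 C57bl6/J arrays together, not from the compared arrays alone. Pdx1-creLate and control arrays were fitted by themselves. Differences are given with their standard error (SE) and levels with their standard deviation (SD), with n = 4 arrays per group. Arrays have no read depth, and their number limits the precision. Positions come from RefSeq on the build GRCm38.

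The arrays of a group were alike, with Pearson's r across genes of 0.9908 to 0.9932 among the post partum arrays and 0.9916 to 0.9949 among the non-pregnant arrays, against 0.9849 to 0.9911 between the groups. Array medians lay between 5.9 and 6.0 in both groups. The SD of an array's values over all genes was 1.735 to 1.818 post partum and 1.764 to 1.843 in non-pregnant islets. The first non-pregnant replicate stood apart at the bright end. Its highest value was 13.3, and 6 of its probe sets lay above 13, against 29 to 35 on the 4 post partum arrays and 30 to 32 on the other non-pregnant arrays. Islet hormones were at the top of the range. Ins2, the main insulin gene measured here, was 12.7 on all 4 post partum arrays, against 11.9 on the first non-pregnant array and 12.7 on the other 3. Glucagon (Gcg) was 13.8 to 13.9 post partum and 13 to 14.0 in non-pregnant islets. Both hormones were thus abundant on all 8 arrays, as the islet label requires. Neither Ins2 (0.20 ± 0.10, adjusted p = 0.2) nor Gcg (0.13 ± 0.12, adjusted p = 0.54) was called. Values this bright may lie close to the top of what the array can show, and the first non-pregnant array decides the sign of the Gcg difference.

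Between the post partum and the non-pregnant islets 2441 genes were called. Of the genes tested, 890 were higher post partum (4.46% of all) and 1551 were lower (7.78%). These shares are the background for the counts of the gene lists below. Most differences were small, with 36 genes at least 2-fold higher and 6 at least 2-fold lower. In 1439 of the called genes, 538 higher and 901 lower, the 4 post partum arrays did not overlap the 4 non-pregnant ones. The direction depended on how bright a gene was. Among the dimmest 25% of genes 249 were called higher and 29 lower, with a median log2 difference of 0.10, and among the brightest 25% 304 were higher and 769 lower, with a median of −0.075. The shares over all genes are therefore an uneven background for lists of bright or dim genes, and lists were not compared with genes of like level. With the array SD as covariate 983 genes were called higher and 900 lower, so the excess of falls does not hold under that setting. With only the 2 groups in the model, 1220 genes were called, 475 higher and 745 lower.

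**Figure D1:**
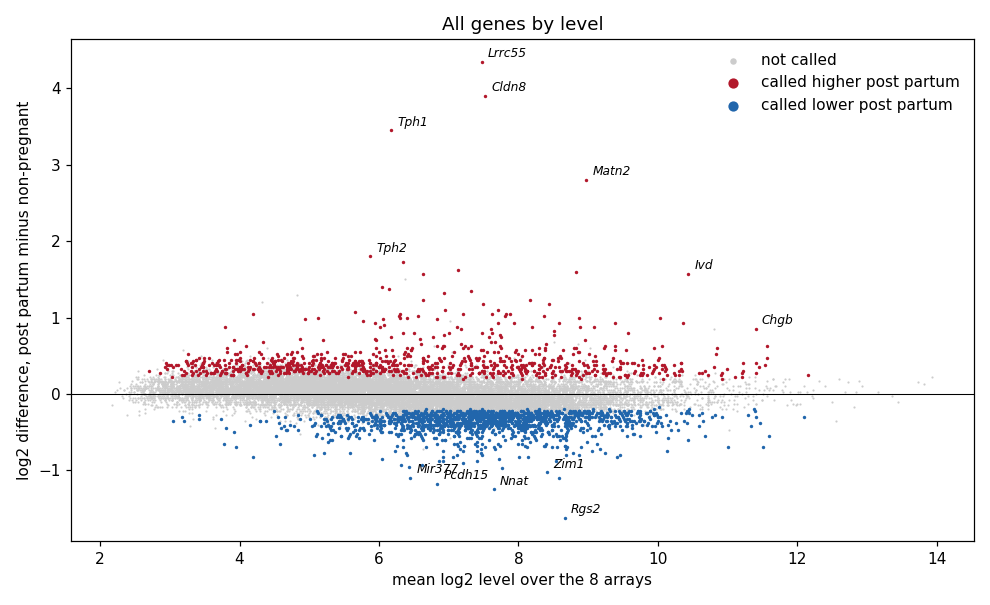
Log2 difference (post partum minus non-pregnant, vertical) against the mean log2 level over the 8 arrays (horizontal), with 1 point per gene. Lrrc55, Cldn8, Tph1 and Matn2 lie between 2.80 and 4.35 above the line at 0, and small falls crowd among the brighter genes.

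The largest rises, picked among called genes whose groups did not overlap, were in genes known to be induced in islets by pregnancy. For genes picked this way the lack of overlap is no added evidence. Lrrc55, an auxiliary subunit of BK potassium channels (GRCm38 chromosome 2, 85188067 to 85198750), read 9.8, 9.9, 9.2 and 9.7 on the post partum arrays, against 5.2, 5.3, 5.3 and 5.4 on the non-pregnant arrays. It rose by 4.35 ± 0.17, which is 20.4-fold (adjusted p = 4.21e-18). Every post partum array lay far above every non-pregnant array, and the spread within each group was small beside the difference. None of the other 7 measured LRRC and BK channel subunits was called.

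Cldn8, a tight-junction claudin (chromosome 16, 88560826 to 88563183), had 9.5, 9.9, 9.2 and 9.3 post partum, against 5.3, 5.6, 5.4 and 6.0 in non-pregnant islets. It rose by 3.90 ± 0.18, or 14.9-fold (adjusted p = 6.59e-17). Of 18 claudins 3 rose and 0 fell, the others being Cldn23 (0.38 ± 0.09) and Cldn7 (0.30 ± 0.08).

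Matn2, the extracellular matrix protein matrilin 2 (chromosome 15, 34306681 to 34436242), read 10.5, 10.4, 10.2 and 10.4 post partum, against 7.5, 7.5, 7.4 and 7.9 in non-pregnant islets. The rise was 2.80 ± 0.12, or 6.96-fold (adjusted p = 5.94e-17). Tnfrsf11b, the decoy receptor osteoprotegerin that binds RANK ligand (chromosome 15, 54250619 to 54278484), had 8.2, 8.0, 7.4 and 8.2 post partum, against 6.5, 6.0, 6.3 and 6.5. It rose by 1.63 ± 0.16, and the third post partum array was the lowest of the 4 but still above every non-pregnant array.

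The next called genes in order of size, among those chosen for groups that did not overlap, rose between 1.73 and 1.23 on the log2 scale. They were the guanylate-binding protein gene Gbp8 (1.73 ± 0.18), the membrane protein gene Tmem255a (1.60 ± 0.13), Ivd (1.58 ± 0.10), Lonrf3 (1.58 ± 0.15), the thin-filament protein gene Neb (1.40 ± 0.11) and the calcium-binding membrane protein gene Mctp1 (1.38 ± 0.12). Ehhadh, which oxidises fatty acids in peroxisomes, rose by 1.35 ± 0.10, Prok1, a secreted prokineticin, by 1.33 ± 0.16, and B3galnt1, a glycosyltransferase, by 1.23 ± 0.12. Prok1 shows the spread these values can have. It read 7.8, 8.1, 6.8 and 7.7 post partum, against 6.3, 6.1, 6.3 and 6.4, so the third post partum array was closest to the non-pregnant level. That array was also the lowest of its group for Lrrc55, Cldn8, Matn2, Tnfrsf11b, Ivd, Neb and Ehhadh.

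**Figure D2:**
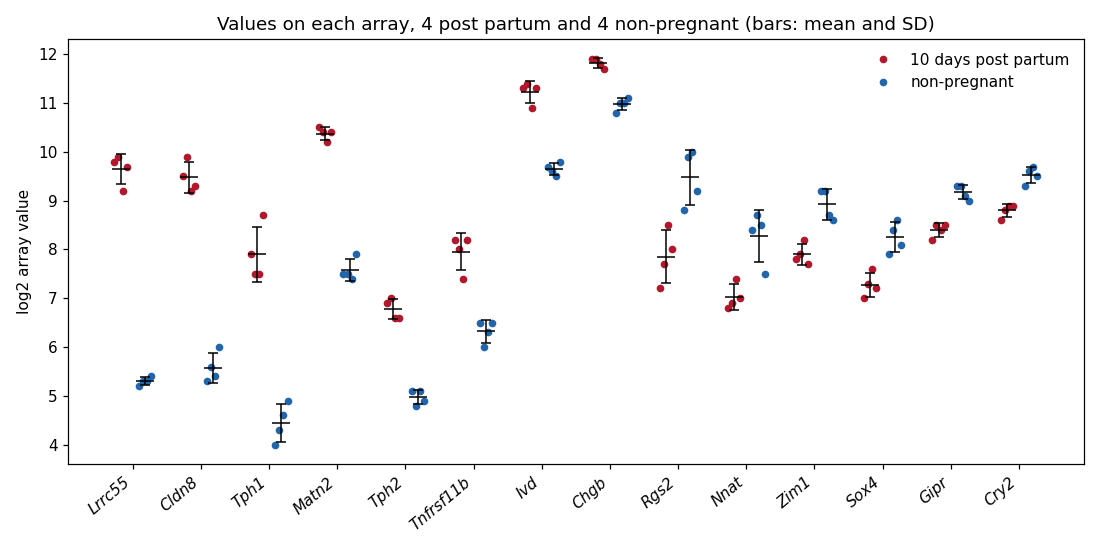
Log2 values (vertical) of 14 genes on the 4 post partum arrays (red, left of each pair) and the 4 non-pregnant arrays (blue, right), with mean and SD as bars. The 8 genes on the left were higher on every post partum array and the 6 on the right lower on every post partum array.

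Serotonin genes moved together at their start. Tph1, which sets the rate of serotonin synthesis outside the brain (chromosome 7, 46644641 to 46672537), had 7.9, 7.5, 7.5 and 8.7 post partum, against 4.0, 4.3, 4.6 and 4.9 in non-pregnant islets. It rose by 3.45 ± 0.22, or 10.9-fold (adjusted p = 5.89e-13). Tph2, its brain counterpart (chromosome 10, 115078641 to 115185022), read 6.9, 7.0, 6.6 and 6.6 post partum, against 5.1, 4.8, 5.1 and 4.9, a rise of 1.80 ± 0.13 (adjusted p = 3.45e-11). Both enzymes were higher on every post partum array. Of 19 genes of serotonin synthesis, storage, breakdown and receptors, 5 rose and 0 fell. The others were Ddc, the decarboxylase of the second step (0.28 ± 0.08), and the dim receptor genes Htr1d (0.38 ± 0.09) and Htr1a (0.33 ± 0.11). The calls of Ddc and Htr1a were lost under several alternatives, Ddc with arrays centred on their medians and Htr1a with the array SD as covariate. The median over the list was 0.13, beside 0.025 over all genes tested.

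Of the lactogen and STAT5 pathway 21 genes were measured, while the prolactin receptor gene is not analysed here. 3 rose, Tnfrsf11b among them, and 5 fell. Cish, a feedback inhibitor induced by STAT5 (chromosome 9, 107296659 to 107302784), read 9.3, 9.5, 8.8 and 9.7 post partum, against 8.7, 8.7, 8.5 and 7.9. It rose by 0.88 ± 0.20 (adjusted p = 0.00296), with a gap of 1 decimal step between the groups, and missed the threshold with all 39 arrays in 1 model. Socs2, another such inhibitor (chromosome 10, 95383903 to 95417321), had 9.0, 9.1, 9.1 and 9.2 post partum, against 8.6, 8.5, 8.6 and 8.3, a rise of 0.60 ± 0.11 (adjusted p = 0.000464). Beside these rises in Cish and Socs2, 5 other genes of the list fell by small amounts. These were the growth hormone receptor Ghr (−0.30 ± 0.08), the kinase Jak2 (−0.30 ± 0.09), the transcription factors Stat5b (−0.30 ± 0.07) and Stat5a (−0.23 ± 0.07) and the adaptor Irs1 (−0.25 ± 0.08). With arrays centred on their medians 2 of these 5 falls were called, and with only the 2 groups in the model 0 were.

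STAT factors bind a palindrome of the letters TTCNNNGAA, and promoters holding that motif are shown for some genes that rose. Cish and Socs2 were looked up besides the genes at least 2-fold higher. For Socs2 no promoter with the motif was found. The windows run from 250 bases before a gene's RefSeq start to 50 after it (RefSeq, GRCm38.p6), searched on both strands, and capitals mark the motif. The first is Cish, on the plus strand at chr9:107296409-107296708, where the motif lies at base 1 and again at base 12 from the start. The second is Prok1, on the minus strand at chr3:107238603-107238902, with motifs 113 and 87 bases before the start. The third is Ivd, on the plus strand at chr2:118861744-118862043, with 1 motif 88 bases before it.
Cish: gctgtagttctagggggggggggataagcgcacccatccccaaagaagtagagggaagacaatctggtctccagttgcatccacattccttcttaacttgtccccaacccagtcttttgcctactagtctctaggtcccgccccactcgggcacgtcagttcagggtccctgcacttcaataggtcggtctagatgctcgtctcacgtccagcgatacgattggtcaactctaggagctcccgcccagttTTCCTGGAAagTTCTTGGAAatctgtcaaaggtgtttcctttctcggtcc
Prok1: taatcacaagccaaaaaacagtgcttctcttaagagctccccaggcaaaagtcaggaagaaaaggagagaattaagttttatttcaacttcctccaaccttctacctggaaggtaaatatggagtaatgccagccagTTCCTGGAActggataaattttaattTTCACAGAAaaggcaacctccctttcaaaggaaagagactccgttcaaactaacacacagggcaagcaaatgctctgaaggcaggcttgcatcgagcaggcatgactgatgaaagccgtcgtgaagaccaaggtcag
Ivd: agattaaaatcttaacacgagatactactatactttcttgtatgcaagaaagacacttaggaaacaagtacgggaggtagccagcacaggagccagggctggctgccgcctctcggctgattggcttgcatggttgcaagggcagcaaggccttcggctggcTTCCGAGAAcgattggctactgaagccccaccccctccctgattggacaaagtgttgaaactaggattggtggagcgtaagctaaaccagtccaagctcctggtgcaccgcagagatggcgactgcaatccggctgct
Among the genes at least 2-fold higher post partum 26 had a promoter in the table, and 5 of them (19.2%) held the motif, beside 2582 of 27025 genes (9.55%) in the whole table. The 5 were Ivd, Prok1, Fgl2, Cntn3 and Nupr1. A match is a string of letters and not a measured binding site, and the promoters of Lrrc55, Cldn8, Tph1 and Matn2 were not among the 5.

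The genes that fell were led by Rgs2, a brake on G-protein signalling (chromosome 1, 143999338 to 144004149). It read 7.2, 7.7, 8.5 and 8.0 post partum, against 8.8, 9.9, 10.0 and 9.2 in non-pregnant islets. It fell by 1.63 ± 0.27 on the log2 scale, a ratio of 0.324 (adjusted p = 9.98e-05). Rgs2 was picked among genes whose groups did not overlap. It varied within each group, with an SD of 0.545 post partum and 0.574 in non-pregnant islets. Of 18 RGS genes 5 fell and 0 rose. Rgs16 fell by 0.85 ± 0.11, Rgs11 by 0.73 ± 0.12, Rgs9 by 0.35 ± 0.07 and Rgs5, a pericyte marker, by 0.28 ± 0.09. The median over the family was −0.14. The call of Rgs5 was lost under 11 alternatives, quantile normalization and arrays centred on their medians among them.

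Other large falls came from several kinds of gene. Pcdh15, a cadherin of cell contacts (chromosome 10, 73096277 to 74649831), had 6.4, 6.1, 6.5 and 6.0 post partum, against 7.5, 7.5, 7.4 and 7.3, and fell by 1.18 ± 0.09. Mdm1, a microtubule-binding protein gene, fell by 1.10 ± 0.14. Sox4, a transcription factor of endocrine development, fell by 0.98 ± 0.13. Gria2, a glutamate receptor subunit, fell by 0.90 ± 0.12, and Acta2, the smooth muscle actin of pericytes and activated stellate cells, by 0.88 ± 0.14. Also among the 15 largest falls were Pwwp3b, Adgb, A330023F24Rik and BC051142, between −0.95 and −0.88. These 15 were chosen among called genes whose groups did not overlap.

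Several imprinted genes, which are expressed from 1 parental allele, were lower. Of 20 measured 9 fell and 0 rose, with a median of −0.26. Nnat, neuronatin, a small membrane protein that acts in insulin processing (chromosome 2, 157560078 to 157562525), had 6.8, 6.9, 7.4 and 7.0 post partum, against 8.4, 8.7, 8.5 and 7.5 in non-pregnant islets. It fell by 1.25 ± 0.16, and the fourth non-pregnant array came within 1 decimal step of the post partum group. Zim1, a zinc-finger gene beside Peg3 on chromosome 7 (6674444 to 6696540), read 7.8, 7.9, 8.2 and 7.7 post partum, against 9.2, 9.2, 8.7 and 8.6, and fell by 1.03 ± 0.12. Its neighbours Peg3 (−0.43 ± 0.07) and Usp29 (−0.38 ± 0.10) fell too. Sgce fell by 0.50 ± 0.10. Under the alternatives 6 to 9 of the 20 genes were called lower, and 1 was called higher under 5 of them, the array SD as covariate included.

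Meg3, a maternally expressed long noncoding RNA (chromosome 12, 109540996 to 109571729), had 10.6, 10.7, 10.5 and 10.8 post partum, against 11.3, 11.6, 11.3 and 11.2. It fell by 0.70 ± 0.13 (adjusted p = 0.00041), with no overlap. The region after Meg3 holds a long row of microRNA genes expressed from the same allele, and 2 of them, Mir377 and Mir382, were among the 15 largest falls of called genes whose groups did not overlap. The whole row was then examined, a choice made after these values were seen. Within 250000 bases of the start of Meg3, 40 microRNA genes were measured. Of these, 20 were called lower post partum, 0 higher, and 36 had a difference below 0, with a median of −0.35. Of the 257 other microRNA genes measured 6 were lower and 12 higher, with a median of 0.075. The genes lie in 1 imprinted domain, so they are not 40 independent observations.

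Mir377 read 6.0, 6.0, 5.9 and 5.7 post partum, against 7.3, 7.2, 6.8 and 6.7 in non-pregnant islets, and fell by 1.10 ± 0.20 (adjusted p = 0.00027). Mir382 had 6.8, 7.0, 7.1 and 7.0 post partum, against 8.3, 7.9, 7.8 and 7.4, and fell by 0.88 ± 0.15. Both had been picked among genes whose groups did not overlap, so that is no added evidence. The groups of Mir300 (−0.80 ± 0.17) and Mir541 (−0.80 ± 0.15) did not overlap either. The fourth non-pregnant array was the lowest of its group for Mir377, Mir382, Mir300 and Mir541. The number of these genes called lower was 10 without the first non-pregnant replicate and 24 without the fourth, and it was 16 with the array SD as covariate. The array measures total RNA with probe sets for the hairpin genes, so it does not tell the mature arms or the precursor apart.

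The mature sequences annotated for the 4 genes with the largest falls are listed (RefSeq, GRCm38.p6, 5′ to 3′). The arms in the row that share a seed follow them. No arm was measured on its own, so the seeds are annotation, and a change in targeting was not tested. Capitals mark the seed, bases 2 to 8, which pairs with target RNAs.
miR-377-5p: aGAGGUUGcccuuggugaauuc
miR-377-3p: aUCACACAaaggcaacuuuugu
miR-382-5p: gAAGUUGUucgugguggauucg
miR-382-3p: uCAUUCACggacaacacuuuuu
miR-300-5p: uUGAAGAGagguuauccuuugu
miR-300-3p: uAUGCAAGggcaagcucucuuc
miR-541-5p: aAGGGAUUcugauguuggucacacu
miR-541-3p: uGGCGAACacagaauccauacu
miR-379-3p: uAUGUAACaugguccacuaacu
miR-411-3p: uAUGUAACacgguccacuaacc
Among the listed arms of the genes called lower, only miR-379-3p and miR-411-3p shared a seed. Mir411 (−0.50 ± 0.13) and Mir379 (−0.30 ± 0.10) were both lower, the second at a level of 2.9 to 3.1 post partum, near the bottom of the array's range. The other arms listed each carry a seed of their own.

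**Figure D3:**
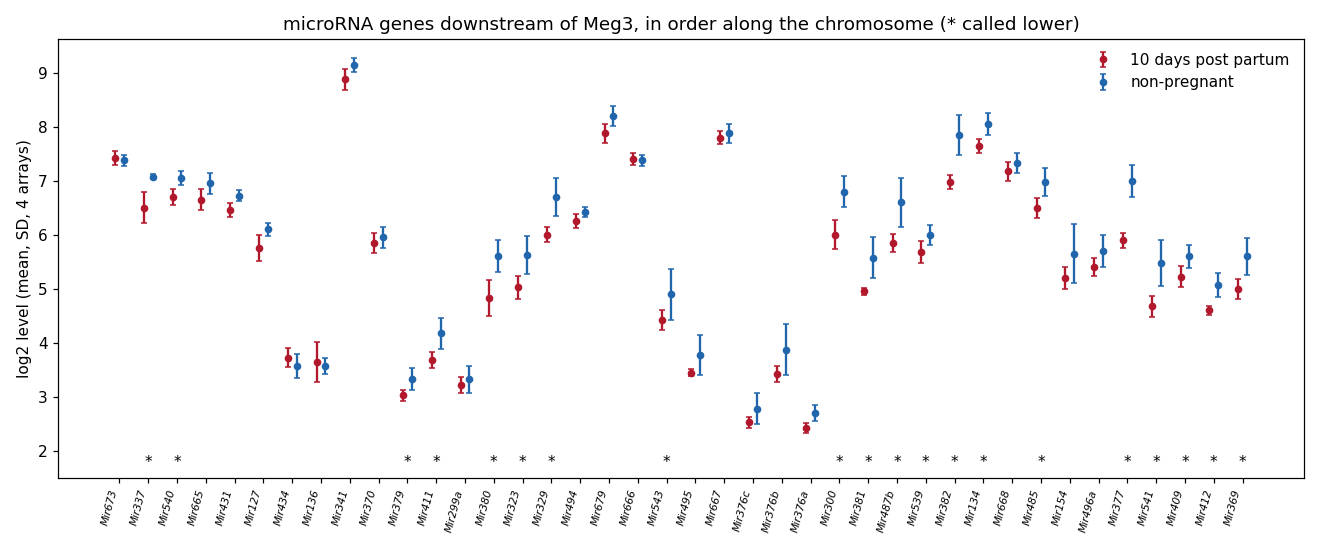
Log2 level (mean and SD over 4 arrays, vertical) of the 40 microRNA genes after Meg3 in their order along the chromosome, post partum (red, left) and non-pregnant (blue, right). Asterisks mark the 20 called lower, and 36 of 40 means are lower post partum.

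Genes of the machinery that folds and exports secreted proteins were higher post partum. Of 28 genes of endoplasmic reticulum (ER) chaperones and ER-associated degradation 13 rose and 0 fell, with a median of 0.23. Derl3, which passes misfolded proteins out of the ER (chromosome 10, 75893398 to 75895941), read 7.6, 7.2, 7.5 and 7.3 post partum, against 6.6, 6.7, 6.5 and 6.6, and rose by 0.80 ± 0.09 (adjusted p = 4.83e-07). Edem1, which marks glycoproteins for degradation, rose by 0.58 ± 0.08. Sdf2l1, a chaperone cofactor, rose by 0.45 ± 0.09 and the stress sensor Ern1 by 0.43 ± 0.09. The most abundant chaperone, Hspa5 (BiP), rose by 0.25 ± 0.07 (adjusted p = 0.0196). It lost the call under 5 alternatives, arrays centred on their medians among them.

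Of 23 genes of translocation into the ER and of COPII export 9 rose and 0 fell. The signal peptidase subunit Spcs1 rose by 0.53 ± 0.08, the channel subunit Sec61b by 0.50 ± 0.08 and the translocon-associated protein Ssr2 by 0.33 ± 0.08. Their per-array means lay between 10.048 and 10.183 post partum and between 9.835 and 9.896 in non-pregnant islets, without overlap. With the array SD as covariate 16 of the 23 were called higher. Of 24 genes of the PERK and ATF4 arm of the stress response 2 rose, beside 4.46% of all genes. They were the stress-induced Nupr1 (1.05 ± 0.17) and the amino-acid transporter Slc7a5 (0.30 ± 0.09), whose call was lost under 5 alternatives. The median of this list was 0.025, like that of all genes.

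Of 32 subunits and carriers of oxidative phosphorylation 5 rose and 0 fell, at most by 0.48 ± 0.10 (Cox7b), followed by Cycs (0.40 ± 0.13), Ndufa4 (0.38 ± 0.07), Atp5g1 (0.38 ± 0.08) and Ndufa2 (0.28 ± 0.09). With arrays centred on their medians 3 were called, and with the array SD as covariate 9 were. The call of Cycs was lost under 8 alternatives and that of Ndufa2 under 7. Of 19 genes of branched-chain amino-acid breakdown 2 rose and 1 fell, beside 4.46% and 7.78% of all genes. Ivd, isovaleryl-CoA dehydrogenase of the leucine pathway (chromosome 2, 118861959 to 118882909), had 11.3, 11.4, 10.9 and 11.3 post partum, against 9.7, 9.6, 9.5 and 9.8, a 2.98-fold rise (adjusted p = 4.56e-13). Bckdhb, a subunit of the branched-chain ketoacid dehydrogenase, rose by 0.75 ± 0.09. Its partner subunit Bckdha had −0.33 ± 0.11 (adjusted p = 0.0468), a call lost under 11 alternatives, quantile normalization and centring among them.

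Lipid genes were called in both directions, and over all genes 4.46% were called higher and 7.78% lower. Dhcr7, the last step of cholesterol synthesis, read 8.6, 8.6, 8.0 and 8.4 post partum, against 7.6, 7.5, 7.5 and 7.3, and rose by 0.93 ± 0.10 (adjusted p = 6.65e-08). Sqle, an earlier step, rose by 0.40 ± 0.08, and the cholesterol exporter Abca1 fell by 0.65 ± 0.11. These were the calls among 19 genes of cholesterol synthesis, uptake and export. Of 20 genes of fatty-acid and triglyceride synthesis 4 fell and 2 rose. Mlxipl, the glucose-responsive factor ChREBP (chromosome 5, 135089890 to 135139768), had 8.6, 8.9, 8.9 and 9.0 post partum, against 9.8, 9.8, 9.6 and 9.3, and fell by 0.78 ± 0.11. The desaturases Fads2 (−0.58 ± 0.10) and Scd1 (−0.53 ± 0.12) and the phosphatase Lpin1 (−0.43 ± 0.10) fell, whereas the desaturase Fads1 rose by 0.60 ± 0.07 and malic enzyme Me1 by 0.35 ± 0.08. Of 24 genes of fatty-acid oxidation 2 rose, Ehhadh and Hadhb (0.25 ± 0.08), and 2 fell, namely Pdk4 (−0.73 ± 0.14), which restrains pyruvate oxidation, and the lipid-droplet protein Plin2 (−0.35 ± 0.09). The call of Hadhb was lost under 10 alternatives, 7 of them with a single array left out. The list medians were −0.025 (cholesterol), −0.0875 (fatty-acid and triglyceride synthesis) and −0.0125 (fatty-acid oxidation), beside 0.025 over all genes. None of these lists moved as a whole by more than a small amount.

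Of 22 transcription factors of beta cells 7 fell and 1 rose, beside 7.78% and 4.46% of all genes. Besides Sox4 the larger falls were Rfx6 (−0.53 ± 0.08), Myt1 (−0.53 ± 0.10) and St18 (−0.48 ± 0.08), all factors of endocrine development, and Ovol2 rose by 0.60 ± 0.09. The other falls were in Isl1 (−0.40 ± 0.08), Foxa2 (−0.33 ± 0.08) and Pax6 (−0.23 ± 0.07), factors that mature beta cells also use, and the call of Pax6 was lost under 9 alternatives. Pdx1 had 0.10 ± 0.09 (adjusted p = 0.495) and was not called. Mafa had 0.23 ± 0.12 (adjusted p = 0.235) and was called higher without the first non-pregnant array. Neither the maturity marker Ucn3 (0.025 ± 0.077) nor the glucose transporter Slc2a2 (−0.075 ± 0.069) passed the test.

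Of 22 genes of beta-cell maturity and the insulin granule 3 rose and 3 fell. Chgb, the granule protein chromogranin B (chromosome 2, 132781642 to 132795079), had 11.9, 11.9, 11.8 and 11.7 post partum, against 10.8, 11.0, 11.0 and 11.1, and rose by 0.85 ± 0.08 (adjusted p = 1.07e-08). Pcsk1, a convertase that cuts proinsulin (chromosome 13, 75089420 to 75134861), read 11.8, 11.7, 11.9 and 11.8 post partum, against 11.2, 11.3, 11.4 and 11.4, a rise of 0.48 ± 0.07. Its inhibitor Pcsk1n fell by 0.55 ± 0.10, with no overlap. The groups of all 3 did not overlap, at bright levels that lay below those of the hormones. The granule zinc transporter Slc30a8 had −0.30 ± 0.09 (adjusted p = 0.0231), a call lost under 6 alternatives, the array SD as covariate among them.

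Of 22 genes of glucose-stimulated secretion 6 fell and 0 rose. Gipr, the receptor of the incretin GIP (chromosome 7, 19156063 to 19170248), had 8.2, 8.5, 8.4 and 8.5 post partum, against 9.3, 9.3, 9.1 and 9.0, and fell by 0.78 ± 0.12 (adjusted p = 4.79e-05). The calcium channel subunits Cacna1a (−0.35 ± 0.09) and Cacna1d (−0.35 ± 0.09) and the fatty-acid receptor Ffar1 (−0.30 ± 0.09) fell by less. The call of Ffar1 was lost under 8 alternatives. With the array SD as covariate 2 of the 22 were called lower, Gipr and Cacna1a. Of 21 hormone receptors of reproduction and lactation 2 rose and 4 fell, beside 4.46% and 7.78% of all genes. Esr1, the oestrogen receptor alpha, rose by 0.60 ± 0.09 and Oxtr, the receptor of oxytocin, by 0.43 ± 0.13 (adjusted p = 0.0286, a call lost without any of 6 single arrays). The thyroid hormone receptor Thra fell by 0.55 ± 0.10, the vitamin D receptor Vdr by 0.40 ± 0.10, Nr3c2 by 0.40 ± 0.11 and the calcium-sensing receptor Casr by 0.33 ± 0.08.

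Mki67, the Ki-67 proliferation marker, read 5.7, 5.7, 6.1 and 5.8 post partum, against 5.4, 5.5, 5.8 and 5.9, a difference of 0.18 ± 0.14 (adjusted p = 0.433). Top2a had 0.18 ± 0.16 (adjusted p = 0.513). The groups overlapped for both. Of 30 genes of mitosis 1 was called, Plk1 (0.30 ± 0.09), a call lost under 8 of the alternatives. Of 27 genes of DNA replication 5 rose and 0 fell. The nucleotide-reducing enzyme Rrm2 rose by 0.50 ± 0.11, the sliding clamp Pcna by 0.45 ± 0.10, the flap nuclease Fen1 by 0.43 ± 0.07, Uhrf1 by 0.38 ± 0.12 and Mcm2 by 0.28 ± 0.09. The call of Uhrf1 was lost under 7 alternatives and that of Mcm2 under 9. Among D cyclins, CDK inhibitors and menin, the inhibitor Cdkn1b (p27) fell by 0.40 ± 0.08.

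Markers of the cells around the beta cells were lower in part, and in whole islets fewer cells of a type and less RNA per cell cannot be told apart. Of 22 endothelial markers 8 fell and 0 rose, among them Esam (−0.50 ± 0.08), the VEGF receptor Kdr (−0.38 ± 0.10), Egfl7 (−0.38 ± 0.10) and Nos3 (−0.30 ± 0.08). The per-array mean of the list was 7.150 to 7.268 post partum and 7.386 to 7.468 in non-pregnant islets. Of 25 markers of stellate cells, fibroblasts and pericytes 10 fell and 0 rose, led by Acta2, Postn (−0.78 ± 0.14), Bgn (−0.65 ± 0.16) and Col3a1 (−0.63 ± 0.16), with array means of 6.460 to 6.552 post partum and 6.696 to 6.944 in non-pregnant islets. Neither pair of ranges overlapped. With the array SD as covariate 5 endothelial and 7 stellate markers were called lower.

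Of 22 macrophage markers 2 rose and 1 fell, beside 4.46% and 7.78% of all genes. C1qa, a chain of complement C1q, had 9.4, 9.4, 9.5 and 8.9 post partum, against 8.5, 8.9, 8.6 and 8.4, and rose by 0.70 ± 0.11 (adjusted p = 8.34e-05). The fractalkine receptor Cx3cr1 rose by 0.35 ± 0.10, a call lost under 4 alternatives, and the invariant chain Cd74 fell by 0.50 ± 0.13. The array means of the list, 6.055 to 6.305 post partum and 6.068 to 6.227 in non-pregnant islets, overlapped. None of 19 markers of T cells, B cells and plasma cells was called. Of 13 mammary and milk protein genes 1 was called, higher, which is little beside the share of all genes.

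Among the other endocrine cells, 5 of 11 alpha-cell markers fell and 0 rose, beside 7.78% and 4.46% of all genes. The 5 were Slc7a2 (−0.48 ± 0.08), Peg3, Dpp4 (−0.35 ± 0.09), Irx2 (−0.33 ± 0.08) and Irx1 (−0.30 ± 0.09). The call of Irx1 was lost under 6 alternatives, and Gcg itself was not called. Of 9 delta-cell markers 4 fell and 1 rose, with Hhex at −0.60 ± 0.13, Rbp4 at −0.55 ± 0.10 and Spock3 at −0.48 ± 0.11 beside Rgs2, and Shisal2b at 0.63 ± 0.08. Somatostatin (Sst) read 13.4, 13.4, 13.5 and 13.3 post partum, against 12.9, 13.7, 13.7 and 13.7. Its difference of −0.10 ± 0.11 (adjusted p = 0.596) was called without the first non-pregnant array. Of 7 pancreatic polypeptide cell markers Id4 (0.73 ± 0.11) and Cmtm8 (0.48 ± 0.11) rose and Etv1 fell by 0.55 ± 0.09. The median over that list was −0.175. The hormone gene Ppy, not among the called members, averaged 12.375 (SD 0.15) post partum and 12.725 (SD 0.395) in non-pregnant islets.

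Exocrine tissue carried along varied between arrays within both groups. The mean of 25 acinar markers was 7.816 to 9.660 on the post partum arrays and 7.292 to 9.156 on the non-pregnant arrays, and 1 marker, Bhlha15, was called higher (0.60 ± 0.16). None of the 7 Reg genes was called. Reg2 read 8.0, 10.0, 4.8 and 5.7 post partum, against 6.6, 5.4, 4.8 and 5.7, so 2 post partum arrays lay above every non-pregnant array and 2 among them. Without the third post partum array Reg2 and Reg3b were called higher, and Reg3b also with array weights. The second post partum array was the highest for Reg2 and for Reg3b (8.4). With the acinar mean as a covariate 891 genes were called higher and 1530 lower.

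Some clock genes and genes of acute stimulation were lower. Over all genes 7.78% were called lower and 4.46% higher. Of 19 clock genes 5 fell and 0 rose. Cry2, a repressor of the clock (chromosome 2, 92403646 to 92434085), read 8.6, 8.8, 8.9 and 8.9 post partum, against 9.3, 9.6, 9.7 and 9.5, and fell by 0.73 ± 0.12. Per1 fell by 0.63 ± 0.10, Nfil3 by 0.58 ± 0.13, Nr1d2 by 0.40 ± 0.09 and Per3 by 0.38 ± 0.11, while Dbp, which swings widely over the day, had −0.20 ± 0.11 (adjusted p = 0.258). Of 29 immediate-early and heat-shock genes 6 fell and 2 rose. The phosphatase Dusp1 fell by 0.83 ± 0.12 and the co-chaperone Dnajb1 by 0.75 ± 0.12, whereas haem oxygenase Hmox1 rose by 0.58 ± 0.09 and Jund by 0.30 ± 0.09. The calls of Per3 and Jund were each lost under 5 alternatives. The part of the time of day and of islet handling in these differences was not tested, since the labels give neither.

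**Figure D4:**
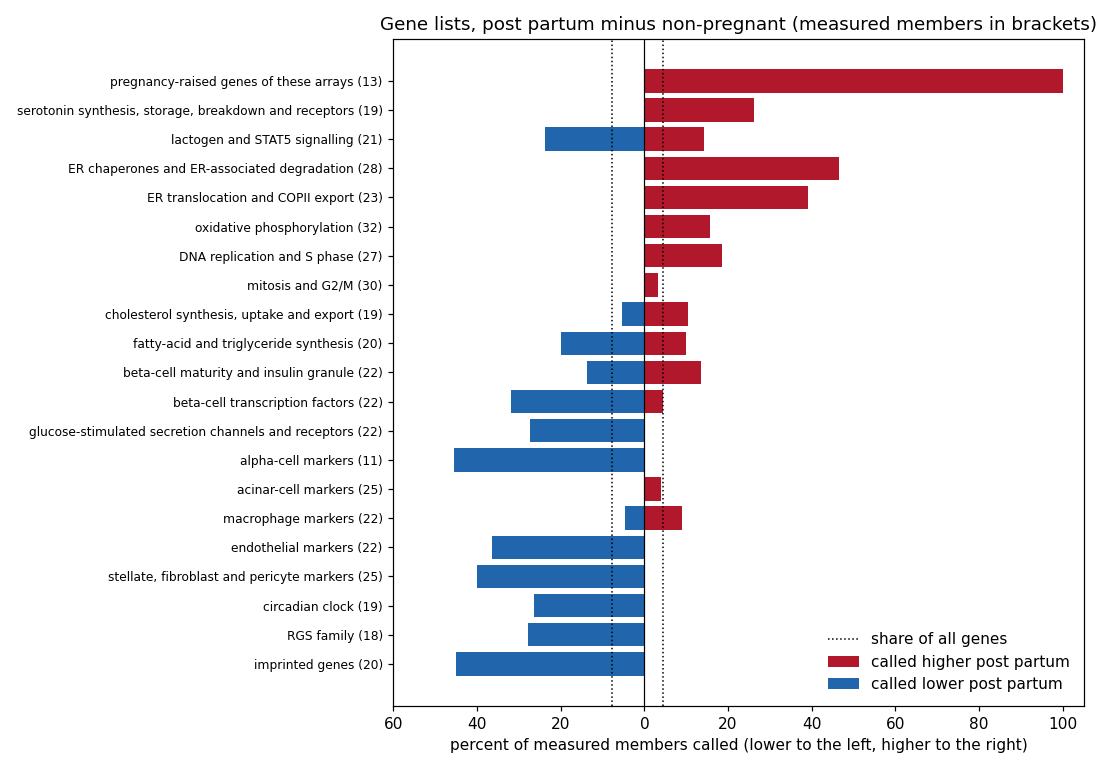
Percent of the measured members of 21 gene lists that were called higher (red, right of 0) or lower (blue, left of 0) post partum, with the share of all genes as dotted lines (4.46% and 7.78%). The lines take no account of how bright the genes of a list are. ER lists lie to the right only, and endothelial, stellate, clock, RGS and imprinted lists to the left only.

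The post partum islets were also tested directly against those of pregnancy day 18.5, the last day before birth on these arrays. This comparison called 6014 genes, 2355 higher post partum (11.8% of all) and 3659 lower (18.4%), but only 1 gene was at least 2-fold higher and 7 at least 2-fold lower. The SD of an array's values over all genes was 1.735 to 1.818 post partum and 1.849 to 1.910 at day 18.5, without overlap. With the array SD as covariate 12 genes were called, so group and spread cannot be told apart for most of these differences.

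A set of 13 genes already known from these arrays to rise in pregnancy, and so no independent evidence of direction, was higher post partum than in non-pregnant islets in 13 of 13 cases. Against day 18.5, 10 of them were lower post partum and 0 higher, and with the array SD as covariate 3 were. Lrrc55 and Matn2 were among the 3 that were not called. Lrrc55 averaged 9.65 ± 0.31 post partum and 9.58 ± 0.13 at day 18.5, a difference of 0.075 ± 0.17 (adjusted p = 0.751). Matn2 averaged 10.38 ± 0.13 post partum and 10.38 ± 0.10 at day 18.5, a difference of 0.00 ± 0.12. For these 2 genes no difference from late pregnancy was detected, within the error given.

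Other members were between the 2 earlier levels. Cldn8 averaged 9.48 ± 0.31 post partum and 10.58 ± 0.10 at day 18.5 (−1.10 ± 0.18, adjusted p = 0.000215). Tph1 averaged 7.90 ± 0.57 post partum and 8.90 ± 0.16 at day 18.5 (−1.0 ± 0.22, adjusted p = 0.00204), and was 3.45 above non-pregnant islets. Tph2 was lower by 0.55 ± 0.13, Ivd by 0.65 ± 0.10, Tmem255a by 0.78 ± 0.13, Neb by 0.83 ± 0.11 and Ehhadh by 0.93 ± 0.10. The F-box gene Fbxw24 was 4.9, 5.5, 4.3 and 4.2 post partum, against 3.5, 4.0, 3.5 and 3.7 in non-pregnant islets, and lay 1.40 ± 0.18 below day 18.5, the largest such fall among genes also called against non-pregnant islets. Of the feedback inhibitors, Cish was lower by 0.68 ± 0.20 and Socs2 by 0.68 ± 0.11. Of the ER genes, Derl3 was lower by 0.75 ± 0.09 and Edem1 by 0.40 ± 0.08. Of these genes, Ivd, Neb and Ehhadh kept the call with the array SD as covariate, and the others did not.

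Car15, a carbonic anhydrase (−1.03 ± 0.16), Vim, vimentin (−0.83 ± 0.13), Lrrc8c, a subunit of volume-regulated anion channels (−0.80 ± 0.21), and Igfbp5, a binding protein of insulin-like growth factors (−0.78 ± 0.14), were also lower than at day 18.5. Vim was below the non-pregnant level too (−0.60 ± 0.13), whereas Car15, Lrrc8c and Igfbp5 were above it. Ifnz was called higher than at day 18.5 (1.08 ± 0.31), a call lost with the array SD as covariate and without the fourth day 18.5 array. It read 8.0, 8.5, 8.1 and 8.8 post partum, against 5.9, 8.1, 7.3 and 7.9 in non-pregnant islets, with overlap. Mir19b-1 was 0.70 ± 0.12 higher, at a dim level of 3.9 to 4.7 post partum. Car15, Vim, Lrrc8c, Igfbp5 and Mir19b-1 also lost the day 18.5 call with the array SD as covariate. Top2a was 0.53 ± 0.16 lower than at day 18.5 (adjusted p = 0.0159), and Mki67 had −0.35 ± 0.14 (adjusted p = 0.0503). The call of Top2a was lost under 4 alternatives, the array SD as covariate among them, and Mki67 was called lower under 9.

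Of the 36 genes at least 2-fold higher post partum than in non-pregnant islets, 21 were lower than at day 18.5, 1 was higher (Ifnz) and 14 were not called. Over all genes 18.4% were called lower than at day 18.5. With the array SD as covariate 5 of all genes were called lower, so most of the 21 did not hold there. Of the 6 genes at least 2-fold lower, 1 (Mir377) was lower still than at day 18.5 and 5 were not called. Rgs2 averaged 7.85 ± 0.55 post partum and 7.43 ± 0.26 at day 18.5 (0.43 ± 0.27, adjusted p = 0.217), and Nnat 7.03 ± 0.26 and 7.35 ± 0.06 (−0.33 ± 0.16, adjusted p = 0.116).

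**Figure D5:**
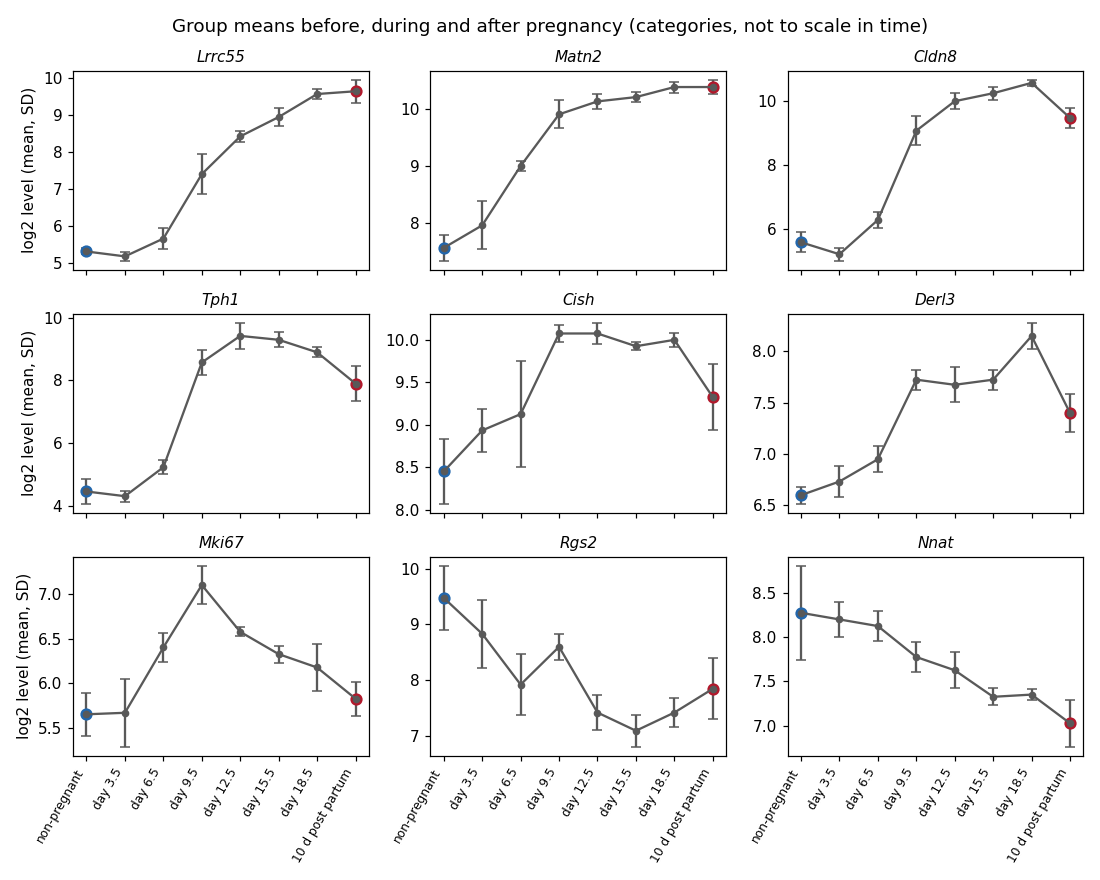
Group means and SD of 9 genes on the log2 scale (vertical) in non-pregnant islets, at 6 days of pregnancy and 10 days post partum (horizontal, in order but not to scale). Lrrc55 and Matn2 end at their day 18.5 level, Cldn8, Tph1, Cish and Derl3 end between day 18.5 and non-pregnant islets, and Rgs2 and Nnat stay low.

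Over the course of pregnancy the mean of Lrrc55 climbed from day 6.5 on. The group mean of Lrrc55 was 5.30 in non-pregnant islets, 5.17 at day 3.5, 5.65 at day 6.5, 7.40 at day 9.5, 8.43 at day 12.5, 8.95 at day 15.5, 9.58 at day 18.5 and 9.65 post partum. Tph1 had its highest mean, 9.43, at day 12.5, and Mki67 its highest, 7.10, at day 9.5. Mir377 had its highest mean at day 3.5 (7.67) and its lowest post partum (5.90). These courses share the non-pregnant and post partum arrays with the comparisons above.

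The Pdx1-creLate line is a beta-cell Cre driver whose transgene carries, as is known from other work, a minigene of human growth hormone, and primate growth hormone also binds the prolactin receptor. Its arrays are separate from the post partum and non-pregnant ones. In Pdx1-creLate islets against control littermates 571 genes were called higher (2.86% of all) and 742 lower (3.72%). Of the 36 genes at least 2-fold higher post partum 35 were called higher in Pdx1-creLate islets and 0 lower, with a median difference of 2.43 there, and the 1 not called was Ifnz (−0.025). Of the 6 genes at least 2-fold lower post partum 4 were called lower in Pdx1-creLate islets and 0 higher. Lrrc55 differed by 4.35 post partum and 4.80 in Pdx1-creLate islets. Tph1 differed by 3.45 post partum and 5.40 in Pdx1-creLate islets, and Cish by 0.88 post partum and 2.35 in Pdx1-creLate islets. The 2 pairs of groups were not tested against each other.

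Some genes called post partum were not called in Pdx1-creLate islets, or were called the other way. The 40 microRNA genes after Meg3 had a median of 0.15 there, with 2 called, and Meg3 itself was called higher (0.43, adjusted p = 0.0134). Bckdhb was 0.00 there and Pcna 0.13, and Cry2 had −0.33 (adjusted p = 0.328), the same sign as post partum. Conversely, Ucn3 was lower in Pdx1-creLate islets (−0.93, adjusted p = 1.48e-05) and Slc2a2 as well (−0.58, adjusted p = 0.0012), 2 genes that did not pass the test post partum.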

How the data were processed

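The study holds 39 arrays (Affymetrix Mouse Gene 1.0 ST) of RNA from whole mouse islets. The deposited values are log2 intensities that the authors made with RMA in Affymetrix Expression Console, per the submitters' processing notes. Which arrays were normalized together is not given in the sources used here. Probe sets were named through the platform annotation (35556 probe sets, 21789 with 1 symbol, 1621 with several, 12146 with none). For each of 19938 symbols the probe set with the highest mean was kept, and 19919 matched RefSeq.

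A group-means model was fitted with limma 3.58.1 (R 4.3.3) over the 31 C57bl6/J arrays, with Benjamini-Hochberg adjustment over all genes. Pdx1-creLate and control arrays were fitted alone. The scripts were tested on simulated data. Alternatives covered scaling, dim genes, probe sets, weights, covariates, blocks and arrays left out.

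The genes named were taken from the 15 largest non-overlapping changes each way, a fixed set, up to 4 called members each way per list, and the 10 largest differences each way from day 18.5. Some of these were left out, among them genes higher than at day 18.5. Stat5a, Ddc, Mcm2, Isl1, Foxa2, Pax6, Irx1, Per3, Rgs5, Usp29, Reg2, Reg3b, Ndufa2, Fgl2, Cntn3 and the microRNA genes near Meg3 other than Mir377 and Mir382 were chosen after their values were seen. Members and lists were chosen with earlier results of these data known.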

Additional observations from a re-analysis of the deposited data

Results flagged for a closer look

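A single array lay apart from the other 3 of its group in 12 of 231 groups examined, by Dixon's criterion at the 95% level, which chance alone meets in about 5% of groups. Post partum, the fourth array stood apart for Ppy (12.6, others 12.3), Fh1 (9.2, others 9.7 to 9.8), C1qa (8.9, others 9.4 to 9.5) and Cldn23 (6.1, others 5.8), and the third for Rbp4 (10.7, others 10.3). In non-pregnant islets, the first array stood apart for the hormones Ins2 (11.9, others 12.7), Gcg (13, others 14.0) and Sst (12.9, others 13.7) and for Ovol2 (7.2, others 6.9). The fourth non-pregnant array stood apart for Nr3c2 (6.7, others 7.0), Isl1 (9.6, others 9.9) and Ffar1 (9.8, others 10.1).

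Genes described above whose post partum level differed from pregnancy day 18.5 in the test of that difference were mostly lower post partum. That balance reflects which genes are described. Others picked by the same rule were higher, such as 4930505O20Rik (0.875), A530040E14Rik (0.825) and 5730596B20Rik (0.725). The log2 differences were −1.40 for Fbxw24, −1.10 for Cldn8, −1.025 for Car15, −1.0 for Tph1, −0.925 for Ehhadh, −0.825 for Neb and −0.825 for Vim. Lrrc8c had −0.80, Tmem255a −0.775, Igfbp5 −0.775, Derl3 −0.75, Cish −0.675, Socs2 −0.675 and Ivd −0.65. Tph2 had −0.55, Top2a −0.525 and Edem1 −0.40, while Ifnz (1.075) and Mir19b-1 (0.70) were higher post partum. With the array SD as covariate, Ivd, Neb and Ehhadh were still called.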

How the results depend on the processing

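Of 175 named genes tested against non-pregnant islets, 115 kept the same outcome under every alternative. That outcome could be a call or no call, so the 115 include genes that were never called. Over these 175 genes and all alternatives, calls were lost in 310 cases and gained in 5, with no reversal. Against non-pregnant islets 1030 genes were called lower with arrays centred on their medians and 900 with the array SD as covariate, and with only the 2 groups in the model 1220 were called, 475 higher and 745 lower. Of the calls, 36.5% were higher in the model as reported, 52.2% with the SD covariate and 44.8% with quantile normalization. With 1 replicate left out, 1541 (without the second non-pregnant array) to 3004 (without the fourth) genes were called, 588 to 1066 higher, 944 to 1938 lower and 29 to 54 at least 2-fold.

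Against day 18.5, 12 genes were called with the SD covariate, 7 higher, 5 lower and 1 of them at least 2-fold. Quantile normalization called 1979, 970 higher and 1009 lower. Higher calls numbered 1533 with centring and 1458 without the dimmest 25% of genes. With 1 replicate left out, 3553 (without the fourth post partum array) to 7116 genes were called, 1316 to 2902 higher, 2237 to 4214 lower and 6 to 13 at least 2-fold.

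In Pdx1-creLate islets lower calls numbered 492 with centring and 480 with the replicate block, and all 39 arrays in 1 model gave 2484 calls, 957 higher and 1527 lower. With 1 replicate left out, 957 to 1175 genes were called, 439 to 520 higher, 465 to 665 lower and 196 to 213 at least 2-fold.

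The samples were treated as unpaired, and the labels do not say whether replicate numbers pair them. The deviations of same-numbered post partum and non-pregnant arrays correlated at −0.057, 0.039, 0.08 and 0.227. Those of arrays with different numbers correlated at −0.409 to 0.266, so these few values do not settle whether the numbers pair samples. With the replicate number as a block 2438 genes were called against non-pregnant islets, and 6044 against day 18.5. The cause of these shifts was not tested. Values near the bottom of the range lie close to background, and those of the hormones close to the top.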
